A study of Mus musculus with 12 samples.

Results

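The genes described here set how cells leave the G1 phase of the cell cycle. They are the D-type cyclins Ccnd1, Ccnd2 and Ccnd3, their partner kinases Cdk4 and Cdk6, the kinase inhibitors Cdkn1a, Cdkn1b and Cdkn2c, the retinoblastoma gene Rb1 and the tumour suppressor gene Men1. They were chosen by name from a deposited table of 55417 genes, and all 10 were found in it and passed the filter on low counts. RNA was measured in pancreas cells that were sorted by flow cytometry at E17.5 from Gcg-Timer mice. Gcg-Timer is a time-resolved fluorescent reporter line named for the glucagon gene Gcg, and all 3 groups carried it. Group B was green and red and holds the more differentiated alpha cells, group A was mainly green and holds newly generated alpha cells, and group N holds the sorted cells that are not alpha cells. Each group had 4 libraries, and the labels give a different mother for each replicate. In such bulk samples, fewer cells of a type and less RNA per cell cannot be told apart.

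D-type cyclins bind Cdk4 or Cdk6, and the active kinases phosphorylate the retinoblastoma protein, which then releases E2F factors that switch on genes of DNA replication. INK4 inhibitors such as Cdkn2c (p18) block Cdk4 and Cdk6 themselves, whereas Cip/Kip inhibitors such as Cdkn1a (p21) and Cdkn1b (p27) bind whole cyclin and kinase complexes. In mouse islets, loss of Cdk4 causes diabetes with few beta cells, Ccnd2 is needed for beta cell growth after birth, and loss of menin, the Men1 product, leads to islet tumours. Menin acts with MLL histone methyltransferases, and Cdkn1b and Cdkn2c are among its known targets in islets.

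Libraries of B held 16216935 to 24259164 estimated counts, those of A 18168640 to 25873608 and those of N 32114272 to 38545699. Alpha cell markers summed to between 43400 and 61300 CPM (normalised read counts scaled to a common library size) in B and between 19300 and 30600 CPM in A, against 650 to 817 CPM in N, and 8 of the 9 alpha markers found rose in A relative to N while 1, Gc, fell. Most of that sum was Gcg itself, for which the sorting reporter is named, at 37300 ± 7190 CPM in B, 15400 ± 4430 CPM in A and 102 ± 30.9 CPM in N. The alpha cell factor gene Irx2 averaged 286 ± 23.7 CPM in B, 176 ± 35.6 CPM in A and 1.7 ± 0.393 CPM in N (SD, n = 4 each). The groups were not pure. Markers of beta cells summed to between 4310 and 4980 CPM in B, between 5350 and 20100 CPM in A and between 3780 and 8510 CPM in N. The 10 beta markers did not move as 1 set: 4 rose and 6 fell in B relative to N, and 4 rose and 0 fell in A relative to N. Mesenchymal markers summed to between 400 and 1340 CPM in B, between 2510 and 10100 CPM in A and between 11800 and 23100 CPM in N, and acinar markers to between 10300 and 25500 CPM in B, between 17900 and 32400 CPM in A and between 59700 and 114000 CPM in N. All 10 mesenchymal markers fell both in B relative to A and in A relative to N. Erythroid markers reached 75900 to 292000 CPM in N and stayed at or below 830 CPM in B and 1890 CPM in A, and no marker of the beta, mesenchymal, acinar or immune lists was at 0 in every library of B. The part of these other cells in the results below was not tested.

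Of the 10 genes, 1 rose and 1 fell in B relative to A, where 13.7% of the 17230 genes tested passed an adjusted p of 0.05 (4.63% higher and 9.12% lower; edgeR quasi-likelihood test, Benjamini-Hochberg). Ccnd2 was the gene that rose and Cdk6 the gene that fell. Relative to N, 2 rose and 5 fell in A, where 45.1% of all genes passed (23.8% higher and 21.3% lower). In B relative to N, 2 rose and 3 fell, where 60.2% passed (29.7% higher and 30.5% lower). Ccnd2 and Rb1 rose in both comparisons with N, and Ccnd1, Ccnd3 and Cdk6 fell in both. The libraries of B and A did not overlap for 4 of the 10 genes, against 18.9% of all genes tested, those of A and N for 6 against 43.3%, and those of B and N for 6 against 58.3%. The counts of 2 and 5 called genes for B against A and B against N were thus near these shares, and that of 7 for A against N was above it. The median log2 change of the 10 genes was 0.12 between B and A, beside -0.01 for all genes tested. It was -0.17 between A and N, beside -0.02, and 0.01 between B and N, beside -0.03. Comparisons with N depend on the scaling, since plain library totals in place of TMM factors move the median of all genes by 0.56 between A and N and by 0.54 between B and N. With plain library totals, Ccnd1, Ccnd3, Cdk6 and Cdkn2c stayed lower in A than in N and no longer passed. All changes below are relative to the TMM scale, and each sentence on a change that turns round on the other scale says so.

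**Figure D1:**
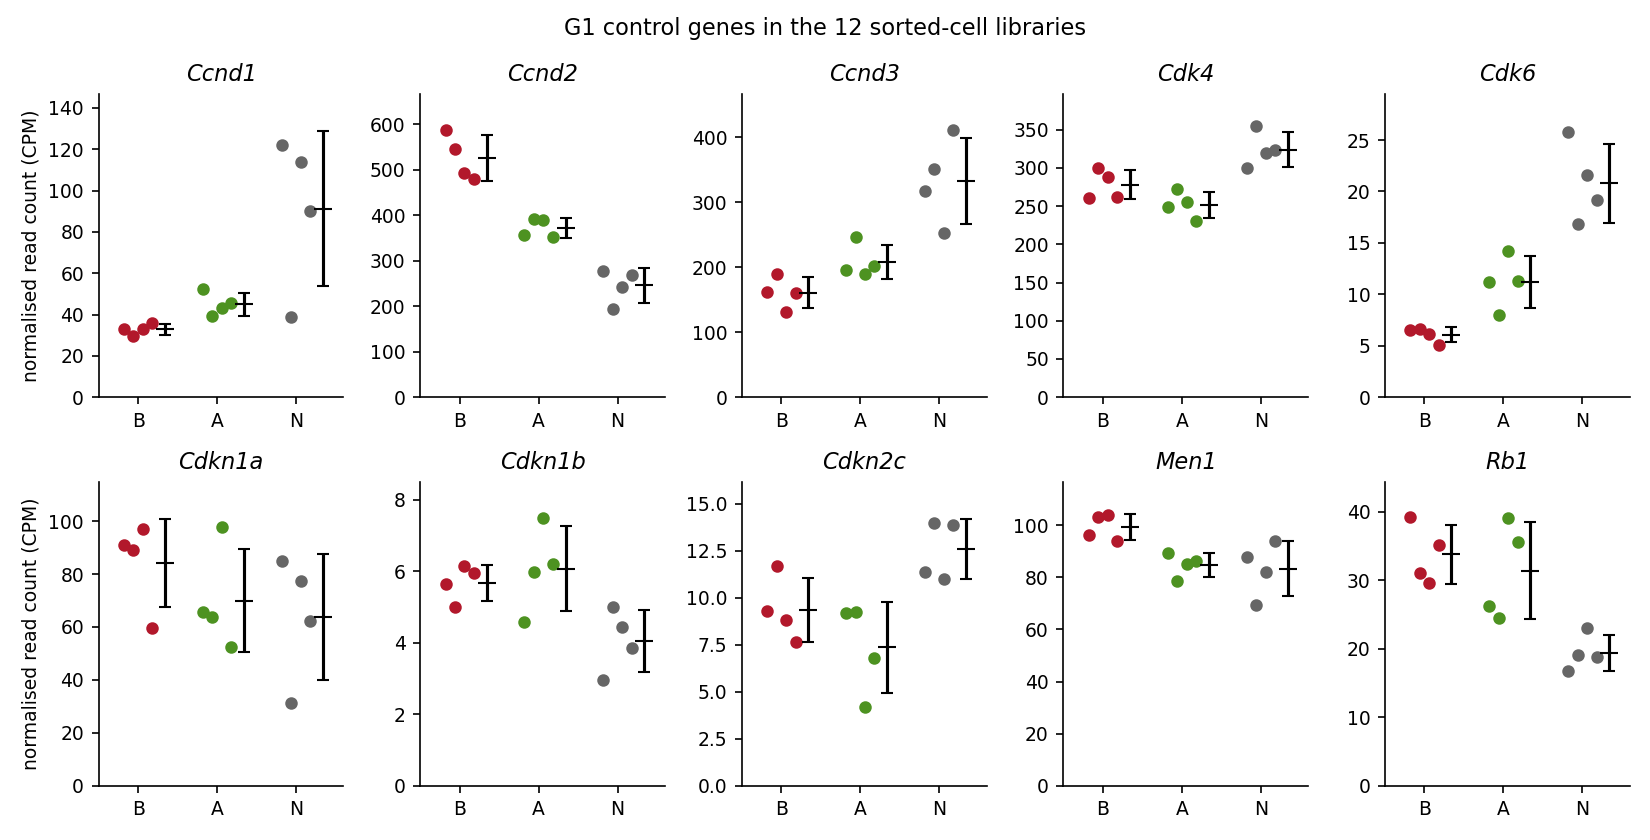
Normalised read count (CPM, vertical axis from 0 in each panel) of the 10 genes in the 4 libraries of B, A and N, with the mean and SD as bars. Ccnd2 stands highest in B and lowest in N without overlap, Cdk6 runs the opposite way, and 1 library of N stands well below the other N libraries for Ccnd1.

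The D-type cyclins moved apart from each other. Ccnd2, on chromosome 6 at 127102125 to 127129156 (GRCm39), had 587, 546, 492 and 479 CPM in B, 356, 391, 389 and 352 CPM in A, and 278, 193, 243 and 269 CPM in N. Every library of B was above every library of A, and every library of A above every library of N. Ccnd2 rose by 0.50 ± 0.13 on the log2 scale (SE) in B relative to A (1.41-fold, adjusted p = 0.0189, edgeR), and in all 4 pairs from the same mothers. It also rose by 0.60 ± 0.13 in A relative to N (1.51-fold, adjusted p = 0.00185) and by 1.1 ± 0.13 in B relative to N (2.14-fold, adjusted p = 7.48e-06). Without the first library of B or of A the difference between B and A kept its sign and no longer passed, with an adjusted p of up to 0.0676.

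Ccnd3, on chromosome 17 at 47815976 to 47910616, had 162, 190, 131 and 161 CPM in B, 196, 246, 189 and 202 CPM in A, and 318, 352, 252 and 411 CPM in N. The libraries of B overlapped those of A narrowly, by the 190 CPM of 1 library of B and the 189 CPM of 1 of A, whereas all libraries of N were above all others. Ccnd3 fell in A relative to N by 0.68 ± 0.16 (log2, SE; adjusted p = 0.00353, edgeR) and in B relative to N by 1.05 ± 0.16 (adjusted p = 7.62e-05). Between B and A the log2 change was -0.37 ± 0.16 and did not pass (adjusted p = 0.138). It was lower in B in all 4 pairs from the same mothers, and with the mother as a block the change of -0.38 passed (adjusted p = 0.0435). Bysl overlaps Ccnd3 on the opposite strand with 14.6% as many counts and was called in none of the 3 comparisons.

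Ccnd1, on chromosome 7 at 144483668 to 144493662, had 32.9, 29.7, 32.8 and 35.8 CPM in B, 52.3, 39.2, 43.0 and 45.6 CPM in A, and 122, 38.8, 114 and 90.1 CPM in N. All libraries of B were below those of A, and the second library of N stood at the level of A. Ccnd1 fell in A relative to N by 1.02 ± 0.26 (log2, SE; adjusted p = 0.00643, edgeR) and in B relative to N by 1.48 ± 0.26 (adjusted p = 0.000299). The change between B and A was -0.46 ± 0.26 and did not pass (adjusted p = 0.273). With the libraries of B and A fitted without N it was -0.47 and passed (adjusted p = 0.0316). The opposite-strand gene LTO1 overlaps Ccnd1, held 35.5% as many counts, and rose in A relative to N by 0.59 (adjusted p = 0.00581), a direction opposite to that of Ccnd1. No source used here says whether counting used strand, so reads of overlapping genes may be divided in either way.

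The make-up of the D cyclin pool was read from TPM, which are per length, as shares within each library, so that no scaling between libraries enters. Ccnd2 made up 81.2 ± 2.5% of the summed D cyclin TPM in B, 69.5 ± 3.02% in A and 46.3 ± 5.03% in N (SD, n = 4 each). Ccnd3 made up 16.9 ± 2.44% in B, 27.4 ± 2.78% in A and 47.2 ± 7.44% in N, and Ccnd1 1.92 ± 0.118% in B, 3.06 ± 0.64% in A and 6.57 ± 2.57% in N. Neither Ccnd2 nor Ccnd3 shares overlapped between any of the 3 groups. The order of the groups was the same in the table made on mm10, but the sizes were not: there Ccnd2 held 53.3% in B, 38.4% in A and 19.9% in N. From the counts divided by gene length it held 62.2% in B, 47.1% in A and 26.0% in N. Which cyclin led in A therefore depended on the table, since Ccnd3 held 54.4% there on mm10 and 27.4% on GRCm39.

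**Figure D2:**
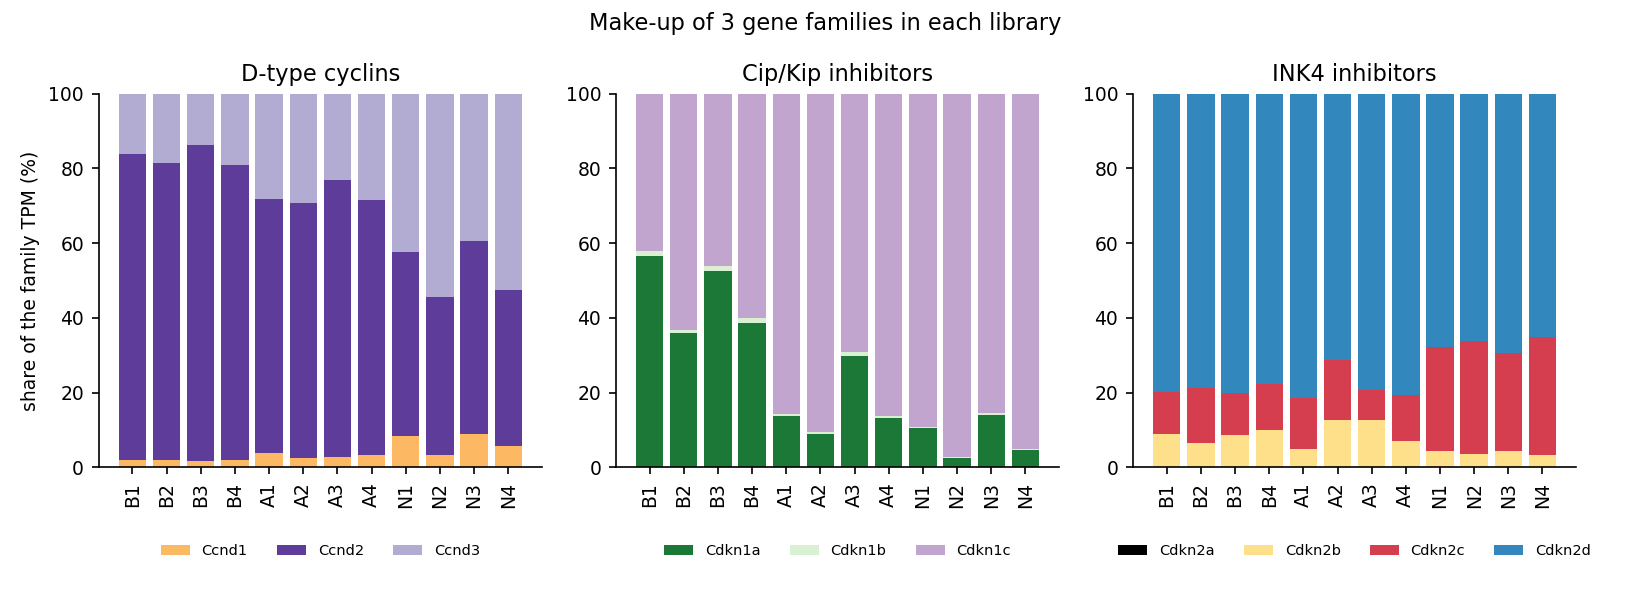
Share of the summed TPM of each family (percent, vertical axis) in each library of B, A and N, for D-type cyclins, Cip/Kip inhibitors and INK4 inhibitors. The Ccnd2 band is widest in B and narrowest in N, the Cdkn1c band is narrowest in B, and the Cdkn2c band is widest in N.

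Cdk4, on chromosome 10 at 126899403 to 126903789, was the partner kinase with the higher level per length. Cdk4 averaged 278 ± 19.0 CPM in B, 252 ± 17 CPM in A and 324 ± 22.7 CPM in N (SD, n = 4 each). Per library the values were 261, 300, 288 and 262 CPM in B, 249, 272, 256 and 231 CPM in A, and 300, 355, 319 and 323 CPM in N, so that B overlapped both other groups and A lay below N. Cdk4 fell in A relative to N by 0.36 ± 0.10 (log2, SE; adjusted p = 0.00909, edgeR), a direction that turned to 0.21 with plain library totals. The change was 0.14 ± 0.10 in B against A (adjusted p = 0.391) and -0.22 ± 0.10 in B against N (adjusted p = 0.0651), the second of which turned to 0.32 with plain library totals and passed with the mother as a block (adjusted p = 0.0378). Tspan31 overlaps Cdk4 on the opposite strand and held 46.0% as many counts. On the TMM scale its log2 change was -0.30 in A relative to N (adjusted p = 0.0431, edgeR). That is smaller in size than the 0.56 by which plain library totals raise the median of all genes, so the direction for Tspan31 depends on the scaling.

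Cdk6, on chromosome 5 at 3391485 to 3581008, had 6.52, 6.64, 6.15 and 5.03 CPM in B, 11.2, 7.96, 14.2 and 11.3 CPM in A, and 25.8, 16.8, 21.6 and 19.2 CPM in N. The 3 groups did not overlap. Cdk6 fell in B relative to A by 0.88 ± 0.20 (log2, SE; 0.545-fold, adjusted p = 0.0129, edgeR), in A relative to N by 0.90 ± 0.20 (adjusted p = 0.00283) and in B relative to N by 1.77 ± 0.21 (adjusted p = 8.07e-06). On the mm10 table the first change was -0.87 with an adjusted p of 0.101 and the second -0.63 with an adjusted p of 0.134, so neither passed there. Mesenchymal markers moved the same way between the groups, and their part was not tested. Within A, the library with the highest mesenchymal sum, 10100 CPM, had the lowest Cdk6, 7.96 CPM, and the library with the lowest sum, 2510 CPM, had the highest Cdk6, 14.2 CPM. Within B, by contrast, the library with the highest sum, 1340 CPM, had the highest Cdk6, 6.64 CPM. Within N, the libraries with the highest and lowest sums held neither extreme of Cdk6. Per length, Cdk6 made up 0.845 ± 0.144% of the summed TPM of both kinases in B, 2.31 ± 0.806% in A and 2.28 ± 0.686% in N. Thus Cdk4 held nearly all of this pool in every library, as it did on the mm10 table with a Cdk6 share of 0.533% in B, 1.06% in A and 1.29% in N.

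The start regions of both kinase genes are shown because Myc, a factor known to bind the E box and to act on Cdk4, fell in A relative to N. Myc averaged 18.8 ± 4.29 CPM in B, 24.1 ± 4.50 CPM in A and 54.2 ± 9.91 CPM in N, and its log2 change was -1.17 ± 0.19 for A against N (adjusted p = 0.000319, edgeR). For B against A the Myc change was -0.36 ± 0.19 and did not pass (adjusted p = 0.243), and that of Cdk4, at 0.14, had the other sign. A link between Myc and the kinase genes was not tested. The 250 bases before the start site are given 5′ to 3′ on the plus strand from RefSeq on GRCm38.p6, at chr10:127063285-127063534 for Cdk4 and chr5:3343643-3343892 for Cdk6, with E boxes (CACGTG) in capitals.
Cdk4: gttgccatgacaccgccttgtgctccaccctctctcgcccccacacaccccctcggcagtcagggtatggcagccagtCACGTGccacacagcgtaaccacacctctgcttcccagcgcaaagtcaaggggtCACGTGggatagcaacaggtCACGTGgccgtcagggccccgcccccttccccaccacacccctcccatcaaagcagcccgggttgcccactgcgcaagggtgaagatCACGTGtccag
Cdk6: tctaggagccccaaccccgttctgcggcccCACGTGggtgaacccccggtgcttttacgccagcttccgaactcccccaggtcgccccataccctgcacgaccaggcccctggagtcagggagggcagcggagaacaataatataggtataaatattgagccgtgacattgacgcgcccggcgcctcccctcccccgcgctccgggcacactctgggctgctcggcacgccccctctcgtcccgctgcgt
The Cdk4 window held 4 E boxes, whose first bases lie 172, 118, 98 and 11 bases before the start site, and the Cdk6 window held 1, at 220 bases. An E box stood in 6.02% of the 32851 windows of this length, and 4 or more stood in 7 of them. Windows were found for 7 of the 10 genes, those other than Ccnd1, Ccnd2 and Rb1. Both strands were also searched for E2F motifs (TTTCCCGC, TTTGGCGC, TTTCGCGC and TTTGCCGC), which were in 1.86% of all windows and in none of those of the 7 genes. GC boxes (GGGCGG) were in 32.7% of all windows and in at least 1 window of 6 of the 7 genes, all but Cdk6, TATA boxes (TATAAA) in 12.4% of all windows and in that of Cdk6 alone, and CHR motifs (TTTGAA and TTCGAA) in 17.1% of all windows and in none of the 7 genes. These matches describe letters only and are no measure of binding.

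None of the 3 inhibitors among the 10 genes passed the test between B and A. Cdkn1a, on chromosome 17 at 29309950 to 29319701, had 91.1, 89.1, 97.1 and 59.6 CPM in B, 65.7, 63.8, 97.8 and 52.5 CPM in A, and 84.8, 31.1, 77.5 and 62.1 CPM in N. The 3 groups overlapped. Its log2 change was 0.27 ± 0.27 for B against A (SE; adjusted p = 0.577, edgeR), 0.13 ± 0.27 for A against N (adjusted p = 0.724) and 0.40 ± 0.27 for B against N (adjusted p = 0.226). The sign for A against N turned, to -0.07, without the third library of A and, to -0.10, without the second library of N, which also stood lowest in N for Ccnd1.

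Cdkn1a is a textbook target of p53, and Mdm2, Bax and Sesn2, which encode the p53 ubiquitin ligase, a pro-apoptotic factor and a stress-induced regulator of mTORC1, are further targets. Cdkn1a did not pass in any comparison while these 3 did, so its upstream start region is shown, at chr17:29090729-29090978 on the plus strand (RefSeq, GRCm38.p6), with matches to the p53 decamer, the repeat unit of a p53 response element, in capitals.
Cdkn1a: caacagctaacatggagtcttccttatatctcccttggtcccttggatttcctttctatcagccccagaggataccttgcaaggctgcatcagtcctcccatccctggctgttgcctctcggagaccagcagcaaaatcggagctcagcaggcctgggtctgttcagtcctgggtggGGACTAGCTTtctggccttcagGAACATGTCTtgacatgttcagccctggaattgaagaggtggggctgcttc
The first bases of the 2 decamers lie 73 and 51 bases before that start site, and a decamer stood in 7.13% of all windows. Cdkn1a has a further RefSeq start, whose window held none. In the printed window the bases directly after the second decamer, tgacatgttc, miss the searched pattern at their first base alone and are not marked. Sesn2 averaged 317 ± 16.6 CPM in B, 204 ± 40.9 CPM in A and 22.0 ± 5.27 CPM in N, and rose in A relative to N by 3.21 ± 0.19 (log2, SE; adjusted p = 3.81e-08, edgeR). Bax averaged 96.0 ± 2.94 CPM in B, 63.9 ± 1.6 CPM in A and 38.9 ± 1.59 CPM in N, and Mdm2 131 ± 17.9 CPM in B, 87.4 ± 14.8 CPM in A and 51.7 ± 4.81 CPM in N. In B relative to A, Sesn2 rose by 0.64 (adjusted p = 0.0302), Bax by 0.59 (adjusted p = 0.000963) and Mdm2 by 0.59 (adjusted p = 0.0138). Of 17 p53 targets listed besides Cdkn1a, 4 rose and 0 fell in B relative to A by edgeR and by DESeq2, with Plk2 beside those 3, and 0 had a lower value at an unadjusted p under 0.05, and 6 rose and 5 fell in A relative to N. With plain library totals the second split was 10 higher and 1 lower. With libraries left out, the Sesn2 rise in B relative to A missed the threshold in 6 of 9 fits, those without any 1 of B1 to B4, A1 and A2 (libraries numbered by replicate), with an adjusted p of up to 0.0856.

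Cdkn1b, on chromosome 6 at 134897364 to 134902476, encodes p27, and menin is known to support its expression in islets. Cdkn1b averaged 5.68 ± 0.508 CPM in B, 6.07 ± 1.19 CPM in A and 4.06 ± 0.866 CPM in N (SD, n = 4 each). Its log2 change was -0.10 ± 0.24 for B against A (adjusted p = 0.843, edgeR), 0.58 ± 0.24 for A against N (adjusted p = 0.0643) and 0.49 ± 0.24 for B against N (adjusted p = 0.0967). None passed, whereas on the mm10 table the change was 0.80 for A against N (adjusted p = 0.0236) and 0.70 for B against N (adjusted p = 0.0329), both of which passed.

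Cdkn2c, on chromosome 4 at 109518073 to 109524386, had 9.31, 11.7, 8.80 and 7.63 CPM in B, 9.22, 9.24, 4.21 and 6.78 CPM in A, and 11.4, 14, 11 and 13.9 CPM in N. All libraries of A lay below those of N, and B overlapped both. Cdkn2c fell in A relative to N by 0.77 ± 0.25 (log2, SE; adjusted p = 0.0212, edgeR), a call that was lost without the fourth library of A or of N (adjusted p of up to 0.0567). The change was 0.35 ± 0.25 for B against A (adjusted p = 0.396) and -0.43 ± 0.24 for B against N (adjusted p = 0.149), the second of which turned to 0.11 with plain library totals.

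Other inhibitors of the same families were also measured. Cdkn1c (p57), an imprinted Cip/Kip inhibitor, had 73.8, 179, 97.2 and 97.1 CPM in B, 462, 699, 254 and 368 CPM in A, and 802, 1260, 500 and 1380 CPM in N. Every library of B was below every library of A, and A overlapped N. Cdkn1c fell in B relative to A by 1.99 ± 0.38 (log2, SE; 0.251-fold, adjusted p = 0.00422, edgeR), in A relative to N by 1.15 ± 0.37 (adjusted p = 0.0215) and in B relative to N by 3.14 ± 0.39 (adjusted p = 1.57e-05). In A relative to N the call was lost with plain library totals, without libraries A3 or A4 and without N2 or N4. Within A, Cdkn1c was highest in the library with the highest mesenchymal sum and the highest beta cell sum (20100 CPM). It was lowest in the library with the lowest of both (5350 CPM for beta cells). In B and in N the library with the highest Cdkn1c also had the highest mesenchymal sum (1340 CPM in B and 23100 CPM in N). The lowest Cdkn1c went with the lowest mesenchymal sum in N (11800 CPM) but not in B. Beta cell sums ran otherwise there. In B the library with the lowest Cdkn1c had the highest beta cell sum (4980 CPM). In N the library with the highest Cdkn1c had the lowest beta cell sum (3780 CPM). The part of these cells in the Cdkn1c level was not tested.

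The make-up of the Cip/Kip pool differed between the groups. Cdkn1a made up 45.9 ± 10.2% of the summed Cip/Kip TPM in B, 16.4 ± 9.19% in A and 7.95 ± 5.31% in N, and Cdkn1c 52.9 ± 10.3% in B, 83.0 ± 9.43% in A and 91.9 ± 5.38% in N. The B libraries overlapped with neither A nor N for these 2 shares, and A and N overlapped. Cdkn1b held 1.20 ± 0.278% in B, 0.558 ± 0.269% in A and 0.174 ± 0.0848% in N, the smallest share in each group. The summed TPM of the 3 genes averaged 319 ± 59.1 in B, 814 ± 251 in A and 807 ± 408 in N (SD). These sums carry no TMM scaling between libraries. On the TMM scale Cdkn1c, the largest part, averaged 446 ± 189 CPM in A and 988 ± 411 CPM in N.

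Among the INK4 genes, Cdkn2d (p19) had 37.5, 39.7, 40.2 and 33.4 CPM in B, 31.9, 27.9, 23.4 and 29.8 CPM in A, and 16.2, 23.4, 18.3 and 17 CPM in N. Its libraries overlapped neither between B and A nor, but for equal values of 23.4 CPM at 3 digits, between A and N. Cdkn2d rose in A relative to N by 0.59 ± 0.14 (log2, SE; adjusted p = 0.00438, edgeR) and in B relative to N by 1.01 ± 0.14 (adjusted p = 4.31e-05), and its change of 0.42 ± 0.14 in B against A did not pass (adjusted p = 0.0667). Cdkn2b (p15) averaged 3.70 ± 0.448 CPM in B, 3.15 ± 1.31 CPM in A and 1.05 ± 0.16 CPM in N and rose in A relative to N by 1.59 ± 0.35 (adjusted p = 0.00242). Cdkn2a, which encodes p16 and p19Arf, had 1 count in 1 library of B and 0 in the other 11, where a count of 0 allows up to 3 counts, or 0.0962 to 0.162 CPM over the 12 libraries. Cdkn2c made up 12.4 ± 1.66% of the summed INK4 TPM in B, 12.6 ± 3.33% in A and 29.0 ± 2.47% in N, and Cdkn2d 79.2 ± 1.15% in B, 78.1 ± 4.64% in A and 67.1 ± 1.88% in N.

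**Figure D3:**
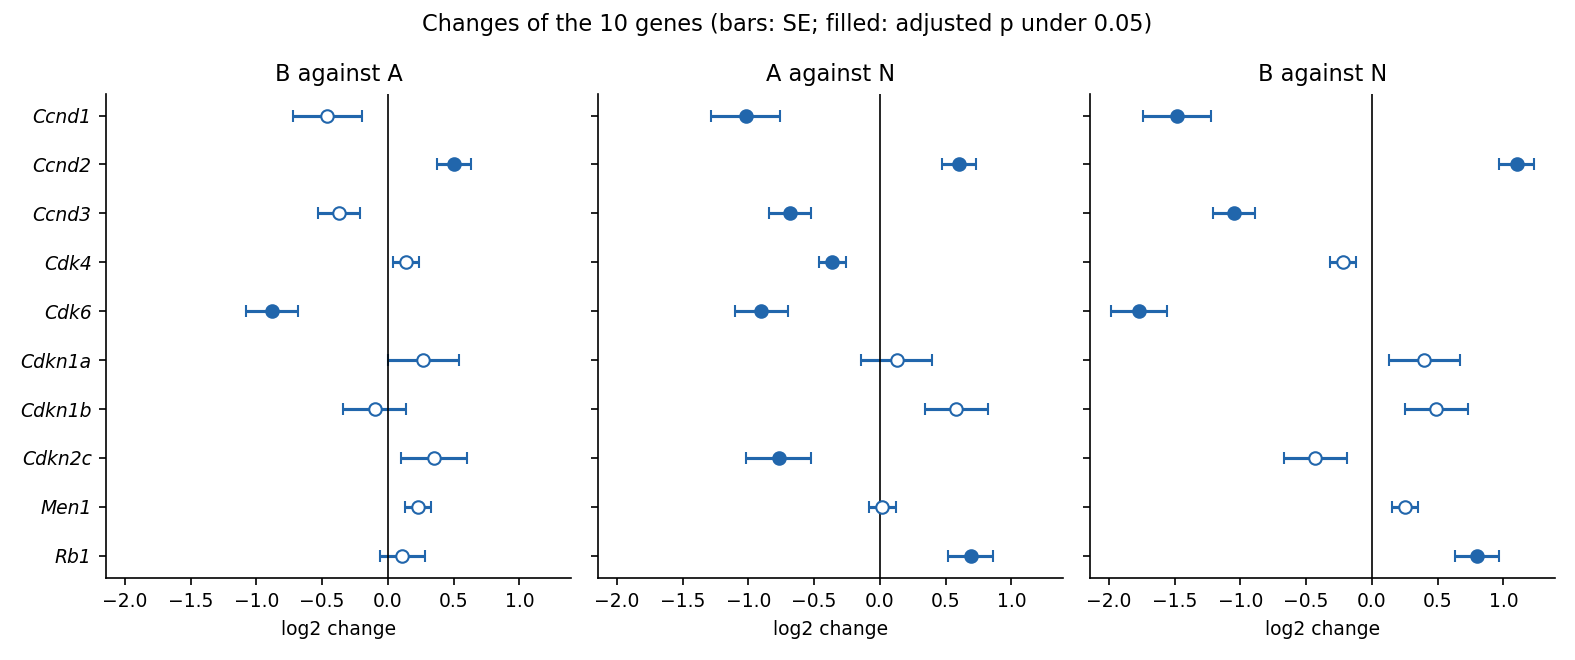
Log2 change (horizontal axis, bars are SE) of the 10 genes on the TMM scale in 3 panels (B against A, A against N, B against N), with filled points where the adjusted p was under 0.05. Ccnd2 and Cdk6 are the filled points for B against A, and Ccnd1, Ccnd3 and Cdk6 are filled on the lower side in both comparisons with N. Cdk4 changes sign in both comparisons with N, and Cdkn2c for B against N, when plain library totals are used.

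Rb1, on chromosome 14 at 73421113 to 73563262, had 39.2, 31.1, 29.6 and 35.2 CPM in B, 26.3, 24.5, 39.1 and 35.6 CPM in A, and 16.7, 19.1, 23.1 and 18.8 CPM in N. The libraries of B and A overlapped, and those of both lay above all of N. Rb1 rose in A relative to N by 0.69 ± 0.17 (log2, SE; adjusted p = 0.00475, edgeR) and in B relative to N by 0.80 ± 0.17 (adjusted p = 0.00107), and its change of 0.11 ± 0.17 in B against A did not pass (adjusted p = 0.738). The opposite-strand genes Rcbtb2 and Lpar6, which overlap Rb1, held 147% and 109% as many counts. Both moved against Rb1 in B relative to N, where Rcbtb2 fell by 0.83 (adjusted p = 3.27e-05) and Lpar6 by 0.69 (adjusted p = 0.00214). In A relative to N, Rcbtb2 fell by 0.59 (adjusted p = 0.000978) and the Lpar6 change of -0.17 did not pass (adjusted p = 0.393). Plain library totals raise the median of all genes by 0.56 there, about as much as Rcbtb2 fell and more than Lpar6 did.

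Men1, on chromosome 19 at 6385009 to 6390921, passed the test in none of the 3 comparisons. It had 96.2, 103, 104 and 93.9 CPM in B, 89.2, 78.6, 85.3 and 86.2 CPM in A, and 87.8, 69.5, 82.0 and 94.1 CPM in N. All libraries of B lay above those of A, and N overlapped both. The log2 change was 0.23 ± 0.10 for B against A (SE; adjusted p = 0.173, edgeR), 0.02 ± 0.10 for A against N (adjusted p = 0.867) and 0.25 ± 0.10 for B against N (adjusted p = 0.0519). The last passed with the mother as a block (0.26, adjusted p = 0.0467), and the sign for A against N depended on the scaling, from -0.04 with DESeq2's factors to 0.59 with plain library totals. Of 12 genes for menin's partners and MLL complex subunits, 0 rose and 0 fell in B relative to A, and 1 of them, Daxx, had an unadjusted p under 0.05 (0.0124, edgeR) and was the 1 that DESeq2 called. In A relative to N, 4 rose and 1 fell, with Kmt2a, an MLL methyltransferase, at 0.73 (adjusted p = 0.0176) and the Polycomb methyltransferase Ezh2 at -0.75 (adjusted p = 0.00268). With plain library totals the split was 9 higher and 0 lower, and Ezh2, at -0.18, no longer passed. Without library A4 or N1, Kmt2a no longer passed.

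The other lists of the pathway place these genes among their partners. Beside their counts, and those of the p53 and menin lists above, stand the shares over all genes tested. In B relative to A 4.63% rose and 9.12% fell, in A relative to N 23.8% and 21.3%, and in B relative to N 29.7% and 30.5%. Counts near these shares do not set a list apart. No such share was computed for counts at an unadjusted p. Of 18 further cyclins, kinases and their regulators, 1 rose and 1 fell in B relative to A: Cdk8, a kinase of the Mediator complex, by 0.78 (log2; adjusted p = 0.00295, edgeR), and Ccng2, an atypical cyclin, with a change of -0.81 (adjusted p = 0.0166), which no longer passed without B1. In A relative to N, 6 rose and 6 fell. Cdc25b, a phosphatase that activates mitotic kinase, had a change of -2.95 (adjusted p = 2.69e-06), and Cdk5, a kinase best known from neurons, one of 1.15 (adjusted p = 4.44e-06). With plain library totals, 8 of these 18 genes were higher and 1 lower in A.

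Of 18 pocket protein, E2F and DREAM complex genes, 2 rose and 0 fell in B relative to A, beside 3 and 0 by DESeq2 and 5 and 0 at an unadjusted p under 0.05. They were E2f1, an activator, at 53.6 ± 3.67 CPM in B and 35.3 ± 10.6 CPM in A (0.60, adjusted p = 0.0451, edgeR), and E2f4, which acts mostly in repression, at 67.7 ± 4.50 CPM in B and 50.3 ± 2.78 CPM in A (0.43, adjusted p = 0.0189). With libraries left out, the E2f1 call held in 1 of 9 fits, that without A4, and that of E2f4 was lost without B2, B3 or A1. The E2f1 call was also lost with plain library totals (adjusted p = 0.0524, edgeR), with B and A fitted alone and on the mm10 table. Both calls were lost with no filter on low counts. In A relative to N, 2 rose and 6 fell, among them E2f2 with a change of -2.70 (adjusted p = 5.56e-06) and the DP partner Tfdp2 with -1.73 (adjusted p = 9.41e-06). With plain library totals the split was 9 higher and 2 lower.

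Of 16 genes for the turnover of D cyclins and p27, 1 rose and 0 fell in B relative to A, as by DESeq2, and 6 were higher and 2 lower at an unadjusted p under 0.05. The 1 was Fbxo31, an F-box protein reported to target cyclin D1, which rose by 0.60 (log2; adjusted p = 0.0102, edgeR). In A relative to N, 5 rose and 2 fell, and those that fell were Skp2 and Cks1b, the receptor and cofactor that mark p27 for degradation. Skp2 averaged 15.2 ± 2.62 CPM in B, 18.9 ± 4.12 CPM in A and 47.6 ± 12 CPM in N, a log2 change of -1.33 for A against N (adjusted p = 0.000244), and Cks1b changed by -0.85 (adjusted p = 0.000155), which did not pass with plain library totals. That split of 5 and 2 was then 13 higher and 1 lower. Of 24 upstream factors and receptors, 1 rose and 4 fell in B relative to A. The 1 that rose was Foxo1, a factor known to act on Cdkn1b, by 0.46 (adjusted p = 0.035, edgeR), a call that was lost with no filter on low counts and without any 1 of B1 to B4, A1 and A2. The 4 that fell were the growth factor receptor genes Egfr, Igf1r, Fgfr1 and Fgfr2. Egfr averaged 1.01 ± 0.58 CPM in B, 9.28 ± 0.723 CPM in A and 22.3 ± 7.08 CPM in N, a change of -3.17 ± 0.37 for B against A (adjusted p = 0.000411), beside 10 of 10 mesenchymal and 6 of 10 beta cell markers that fell in B; their part was not tested. Fgfr1 no longer passed without B1 or without A2.

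Genes of DNA replication and mitosis, many of them E2F targets, were the readout furthest down the pathway. Of 32 such genes listed, 8 rose and 0 fell in B relative to A, where 4.63% of all genes tested rose and 9.12% fell. Their median log2 change was 0.38 beside -0.01 for all genes tested. DESeq2 called 13 higher and 0 lower, and 19 were higher and 0 lower at an unadjusted p under 0.05. Aurka, a mitotic kinase, averaged 31.5 ± 3.26 CPM in B, 17.9 ± 0.852 CPM in A and 34.1 ± 2.77 CPM in N and rose by 0.82 ± 0.11 in B relative to A (adjusted p = 0.000885, edgeR), and the replication helicase genes Mcm2 and Mcm7 rose by 0.63 (adjusted p = 0.0075) and 0.55 (adjusted p = 0.00401). In A relative to N, 0 rose and 30 fell by edgeR, by DESeq2 and at an unadjusted p under 0.05, with a median of -0.95 beside -0.02 for all genes tested. With plain library totals that split was 2 higher and 14 lower, and that of B against N, 1 higher and 18 lower on the TMM scale, was 6 higher and 4 lower. Acinar, mesenchymal and erythroid markers fell in A relative to N as well, and their part was not tested.

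**Figure D4:**
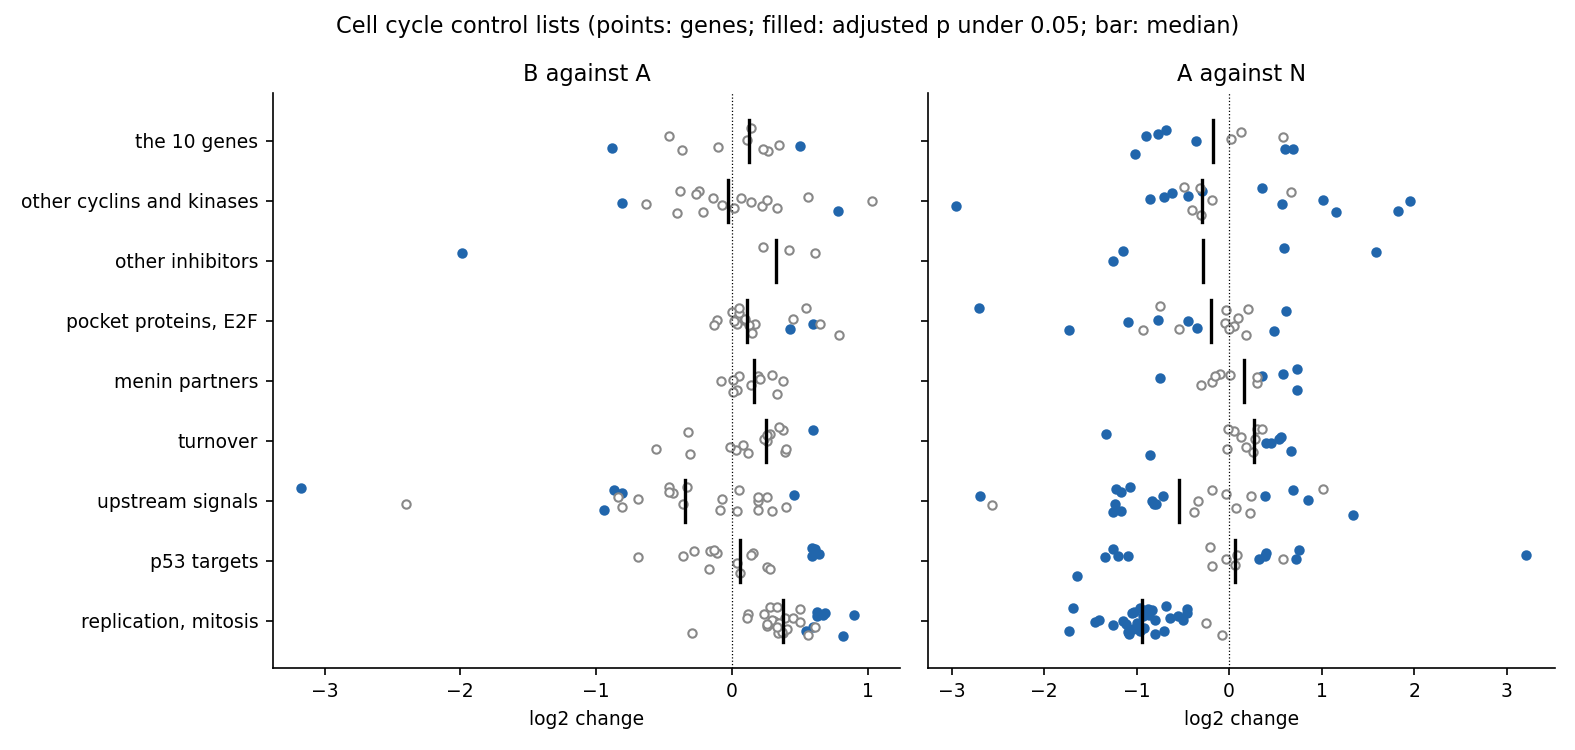
Log2 change on the TMM scale of each gene (points) in the 10 genes and 8 related lists, for B against A and A against N, filled where the adjusted p was under 0.05, with the median of each list as a bar. Replication and mitosis genes lie mostly to the right for B against A (median 0.38) and to the left for A against N (median -0.95); with plain library totals the second panel moves to the right by about 0.56, and of the 8 related lists that of replication and mitosis alone keeps a negative median there (-0.38).

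Genes with profiles closest to those of the 10 genes were sought over the 12 libraries among 10276 genes with a mean log2 CPM of at least 3, by the root mean square difference of centred log2 CPM. The closest to Ccnd2 were Elp3 (0.109), Prkaca (0.110) and Thap11 (0.124). Closest to Cdk6 were Amotl2 (0.184), Serpini1 (0.202) and Paox (0.203), and closest to Ccnd1 were Serinc3 (0.221), Adam10 (0.247) and AI506816 (0.248). Rb1 lay nearest to Habp4 (0.135), Cdk4 to Commd5 (0.089), Men1 to Dcaf10 (0.055), Ccnd3 to Mtap (0.114), Cdkn1a to Tle5 (0.192) and Cdkn1b to Gba2 (0.126). Cdkn2c lay nearest to Pkmyt1 (0.180), a kinase that holds back entry into mitosis, and Incenp (0.187), a subunit of the chromosomal passenger complex. These distances describe the same 12 libraries and carry no test.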

How the data were processed

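Per the labels' protocols, a Qiagen RNeasy kit gave the RNA and a SMARTER kit the libraries. Each gene's estimated count and TPM in the 12 libraries were deposited by the authors in a table on GRCm39 that also holds the reporter sequences and in a table on mm10. STAR 2.5.2b and DRAGEN are named in the submitters' processing notes. Their roles, the division of shared reads and the use of strand are not given in the sources used here. The GRCm39 estimated counts, as deposited by the authors, were rounded to integers, with a shift of at most 0.000286% in any library total. A further sheet repeats filtered mm10 values and was left aside.

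The filterByExpr step kept 17230 of 55417 genes. All 12 libraries were fitted by group with edgeR 4.0.16 in R 4.3.3 (TMM factors, glmQLFit and glmQLFTest, Benjamini-Hochberg at 0.05), at a common biological variation (BCV) of 0.305. TMM factors were 1.10 to 1.14 in B, 1.12 to 1.18 in A and 0.732 to 0.810 in N. The pipeline was run on simulated data in which few genes changed, as many up as down. That run cannot speak to the scaling on which the comparisons with N depend. CPM are edgeR's cpm values, scaled by library total times factor, and the SE follows from the quasi-likelihood F statistic. Alternatives used DESeq2 1.42.0, other scalings and filters, the mm10 table, left-out libraries and a replicate block. TPM as deposited by the authors were used for shares within a library and for family sums, which got no test. Replicates of a group come from different mothers per the labels, and no 2 libraries of a group agreed within sampling noise. Samples with the same number were taken as pairs: the labels tie replicates to mothers, Y-linked transcripts ran at levels particular to each number in all 3 groups (between 0.191 and 0.488 CPM for the third, at least 44.3 CPM for the others), and deviations from group means correlated at 0.05 to 0.23, for each number higher than with any other number.

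The 10 genes, the gene lists and the tests were chosen with earlier results of these data known. Named besides the 10 genes are those with the 3 smallest p in each list and comparison and the 3 closest profiles for each gene, of which not all are printed; overlapping genes, the other inhibitors of the same families and further called list members were named after their values were seen. Promoter windows come from RefSeq (GRCm38.p6).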

Additional observations from a re-analysis of the deposited data

How the results depend on the processing

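Most values kept their direction and their side of the threshold. The count covers single genes, numbers of called genes and TPM shares. It was 362 of the values under other settings and 440 of those with libraries left out. The TPM shares got no test and have no threshold. With a library left out, the mean share of a group cannot leave the SD of that group. The shares within the 440 were therefore bound to count as unchanged and do not show that the shares are stable. For values that did not stay, the cause was not tested, save where a scaling or fewer samples are the construction itself.

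With RLE factors, Men1 turned to -0.04 for A against N and Cdk4 passed for B against N at -0.29; with upper quartile factors Men1 was at -0.01 and Cdk4 at -0.31, and with DESeq2 Men1 at -0.04 and Cdk4 at -0.29. With plain library totals, for A against N, Ccnd1 (-0.44), Ccnd3 (-0.12), Cdk6 (-0.32) and Cdkn2c (-0.21) no longer passed, Cdkn1a (0.71), Cdkn1b (1.15) and Men1 (0.59) passed, and Cdk4 turned to 0.21. For B against N, Cdkn1a (0.95), Cdkn1b (1.03) and Men1 (0.79) passed, and Cdk4 turned to 0.32 and Cdkn2c to 0.11. The genes called for A against N, 4099 higher and 3664 lower on the TMM scale, were then 8243 higher and 1386 lower, and those for B against N, 5118 higher and 5257 lower, were 8263 higher and 3407 lower. With no filter on low counts Men1 was at 0 for A against N. With B and A fitted alone, Ccnd1 passed at -0.47.

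With the replicate number as a block, the pairing made 3 further calls, Ccnd3 for B against A at -0.38 and, for B against N, Cdk4 at -0.22 and Men1 at 0.26, and changed no other call of the 10 genes.

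On the mm10 table, Cdk6 no longer passed for B against A (-0.87) or A against N (-0.63), and Cdkn1b passed for A against N (0.80) and B against N (0.70), as did Men1 for B against N (0.27). TPM shares on mm10 were 5.17% in B, 7.15% in A and 11.5% in N for Ccnd1, 53.3% in B, 38.4% in A and 19.9% in N for Ccnd2, and 41.5% in B, 54.4% in A and 68.7% in N for Ccnd3. They were 0.533% in B, 1.06% in A and 1.29% in N for Cdk6, 2.06% in B, 0.928% in A and 0.268% in N for Cdkn1b, and 10.6% in B and 25.1% in N for Cdkn2c. Counts divided by gene length, chosen after seeing the data, gave 6.62% in B, 9.71% in A and 16.3% in N for Ccnd1, 62.2% in B, 47.1% in A and 26.0% in N for Ccnd2, 31.2% in B, 43.1% in A and 57.8% in N for Ccnd3, and 0.389% in B, 0.789% in A and 1.15% in N for Cdk6. When a change of more than 2-fold was tested for, 404 genes passed between B and A in place of 2368, 1566 between A and N in place of 7763, and 4484 between B and N in place of 10375.

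Leaving out libraries, 1 at a time or the 3 with number 2 together (chosen after seeing the data), gave ranges of 0.44 to 0.54 for Ccnd2, -0.52 to -0.38 for Ccnd1 and -0.21 to 0.02 for Cdkn1b in B against A, where the genes called numbered 1506 (without the first library of B) to 2484, with 1523 without the second of A. Ccnd1 passed without all 3 libraries numbered 2 (adjusted p = 0.0499, edgeR). For A against N the ranges were -0.10 to 0.30 for Cdkn1a, 0.46 to 0.70 for Cdkn1b (passed without the first library of A or the second of N), -0.90 to -0.58 for Cdkn2c and -0.06 to 0.09 for Men1, and for B against N -0.29 to -0.18 for Cdk4 (passed without the second library of B) and 0.14 to 0.32 for Men1 (passed without the fourth of N). Cdkn2a was the 1 gene named here that had too few counts to be tested.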
